A study of Mus musculus with 29 samples.

Results

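Glucose transport, glycolysis, glycogen turnover, lactate exchange and the control of pyruvate dehydrogenase were described here through 37 genes, all of which were found by symbol among the 36172 gene rows of the table. They encode 2 glucose transporters, 9 enzymes and regulators from hexokinase to phosphofructokinase, 10 enzymes from aldolase to enolase, 5 genes of lactate production and transport, 8 genes of glycogen metabolism and 3 genes that act on pyruvate dehydrogenase. RNA came from half-brains of NuTRAP mice, in which Cre tags ribosomes with EGFP so that ribosome-bound mRNA of the Cre-expressing cell type can be pulled down with an antibody to GFP (TRAP). In the Aldh1l1-NuTRAP mice (Aldh1l1-Cre/ERT2 +/wt; NuTRAP flox/wt) Cre is driven by the astrocyte gene Aldh1l1, and in the Cx3cr1-NuTRAP mice (Cx3cr1-Cre/ERT2 +/wt; NuTRAP flox/wt) by the microglial gene Cx3cr1, which is also active in other macrophages. All mice of both lines carried 1 copy of NuTRAP and received tamoxifen at about 3 months of age (100 mg/kg, daily for 5 days), so NuTRAP and tamoxifen were shared by every group, whereas the Cre allele differed between the lines. According to the study's text, collection was delayed by some weeks after tamoxifen in the Cx3cr1 line so that labelled blood monocytes would be replaced, and Aldh1l1 brains for flow cytometry and staining were taken sooner. Both sexes were used, and the sex of each mouse was not used here. From 3 mice of the Aldh1l1 line the pulled-down RNA (positive fraction) and what the beads left behind (negative fraction) were sequenced. From 6 mice of the Cx3cr1 line the same fractions and the lysate before pulldown (input) were sequenced, and for 5 of the 6 also RNA isolated conventionally from whole tissue, titled as a slice in the labels.

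Astrocytes take up glucose from the capillaries that their endfeet surround, hold most of the glycogen of the brain, and release lactate that neurons can oxidise. Many steps of glycolysis exist as several isozymes encoded by separate genes, and the isozymes differ in kinetics, in regulation and in the cells that make them. Microglia are the resident macrophages of the brain, and macrophages are known to use hexokinases 2 and 3 and the lactate exporter MCT4 (Slc16a3). Microglia also differ from other brain cells in expressing the fructose transporter Slc2a5.

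The totals of the 29 libraries lay between 4260949 and 26857866 counts, and the shallowest was the whole tissue of mouse 210. The lowest count of any of the 37 genes in any library was 5. Mouse 290 stood apart in the Aldh1l1 line. Its 2 libraries were the shallowest of the line, and their mean chi-square per gene against those of the other mice was 61.8 to 113, where it was 13.2 and 21.7 between mice 293 and 294. The Cx3cr1 positive libraries fell into 2 sets. Those of mice 209, 210 and 277 differed among themselves by 9.17 to 16.3 and from those of mice 155 and 194 by 78.1 to 173, while mouse 192 lay between them (25.7 to 63.1 and 28.1 to 43.5). The inputs of the same mice differed by 4.58 to 29.3. The Cx3cr1 negative library of mouse 155 differed from those of the other mice by 44.2 to 60.6. Among themselves, the negative libraries of the other mice differed by 4.18 to 12.2. In the Aldh1l1 positive fraction, 10 of 10 astrocyte markers were higher than in the negative fraction, and 9 of 9 tested microglial, 10 of 10 neuronal and 9 of 10 oligodendrocyte markers were lower. In the Cx3cr1 positive fraction, 10 of 10 microglial markers were higher than in the input, 9 of 10 oligodendrocyte and 6 of 10 astrocyte markers were lower, but only 3 of 10 neuronal markers were lower and none was higher. Of the endothelial list, 4 of 8 markers were higher than in the input and none lower (median log2 fold change 0.34). Its sum was 103, 124 and 127 CPM (counts per 1000000 counts) in the positive libraries of mice 155, 192 and 194. In those of mice 209, 210 and 277 it was 206, 211 and 199 CPM, and in the inputs it lay between 109 and 129 CPM. The part of the endothelial list in the results on this fraction was not tested. The summed level of the neuronal list lay between 5366 and 8292 CPM in the Cx3cr1 positive fraction and between 7676 and 8019 CPM in the input. The 7 monocyte and neutrophil markers summed to at most 5.02 CPM in it. In bulk RNA, fewer cells of a type and less RNA per cell cannot be told apart.

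The stretches of 250 bases before the annotated start of 4 genes are shown because Aldoc and Ppp1r3c had the largest rises in the Aldh1l1 positive fraction and Hk3 and Hk2 in the Cx3cr1 positive fraction. Hk2 rose in both. They are printed from RefSeq (GRCm38.p6) 5′ to 3′ on the strand of the gene, and the base before the start is the last. Capitals mark ACGTG and GCGTG, the core letters bound by hypoxia-inducible factor, CACGTG, an E-box that contains ACGTG on both strands, and GGGCGG, a GC box. Each motif was searched on both strands. The PU.1-type letters GAGGAAGT were also searched. Aldoc lies on chr11:78323948-78324197 (plus strand), Ppp1r3c on chr19:36736605-36736854 (minus), Hk2 on chr6:82774455-82774704 (minus) and Hk3 on chr13:55021386-55021635 (minus).
Aldoc: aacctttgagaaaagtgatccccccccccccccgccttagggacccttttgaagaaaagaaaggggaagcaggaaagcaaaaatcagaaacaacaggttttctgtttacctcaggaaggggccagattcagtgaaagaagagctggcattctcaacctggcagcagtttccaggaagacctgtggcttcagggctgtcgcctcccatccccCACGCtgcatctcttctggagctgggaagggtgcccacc
Ppp1r3c: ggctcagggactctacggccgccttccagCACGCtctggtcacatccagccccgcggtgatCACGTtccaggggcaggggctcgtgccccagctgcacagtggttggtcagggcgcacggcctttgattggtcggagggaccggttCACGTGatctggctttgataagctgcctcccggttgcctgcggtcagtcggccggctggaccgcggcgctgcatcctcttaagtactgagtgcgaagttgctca
Hk2: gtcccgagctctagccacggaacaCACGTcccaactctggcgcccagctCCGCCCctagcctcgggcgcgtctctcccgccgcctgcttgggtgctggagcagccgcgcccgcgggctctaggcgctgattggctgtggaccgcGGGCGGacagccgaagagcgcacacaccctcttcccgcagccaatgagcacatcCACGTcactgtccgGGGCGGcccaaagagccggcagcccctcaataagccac
Hk3: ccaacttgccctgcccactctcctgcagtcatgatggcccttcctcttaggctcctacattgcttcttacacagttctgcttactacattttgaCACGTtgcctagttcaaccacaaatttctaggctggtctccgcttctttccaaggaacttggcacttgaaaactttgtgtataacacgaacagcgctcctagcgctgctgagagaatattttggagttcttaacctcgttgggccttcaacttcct

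Hk2, the hexokinase gene known to respond to hypoxia and growth signals, held 2 ACGTG and 3 GGGCGG matches, and its stretch was 69.6% G or C. Ppp1r3c held 3 ACGTG matches on the 2 strands, 2 of them in 1 CACGTG, as well as 1 GCGTG. A single GCGTG was found for Aldoc and a single ACGTG for Hk3. The letters ACGTG were present before 22 of the 50 starts listed for 35 of the 37 genes (44.0%) and before 16.6% of all 32841 starts of the table. GCGTG was present before 28 of the 50 (56.0%, against 28.2% of all), CACGTG before 7 (14.0% against 6.02%) and GGGCGG before 22 (44.0% against 32.7%). GAGGAAGT was before none of the 50 and before 2.44% of all starts. The median G and C content was 59.8% for the 50 starts and 52.4% for all, and the part of this difference in the motif counts was not tested. Slc2a3 and Slc16a7 are the 2 genes without an entry.

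Astrocyte pulldown raised 21 of the 37 genes and lowered 6 (positive against negative fraction of the Aldh1l1 line, edgeR quasi-likelihood test, adjusted p under 0.05). Of all 13319 genes tested, 26.8% were higher and 24.8% lower, so the share of the 37 that was higher (56.8%) was above the background and the share that was lower (16.2%) below it. The median log2 fold change was 0.72 over the 37 genes and 0.04 over all genes. All 8 glycogen genes and all 3 pyruvate dehydrogenase genes were higher, and no member of these groups was lower. Among the hexokinases Hk2 was higher and Hk3 lower, and among the enolases Eno1 was higher and Eno2 lower, while Hk1 and Eno3 were not called. Of the monocarboxylate transporters Slc16a3 and Slc16a7 were lower, and Slc16a1 was not called. The values printed as CPM are shares of the library total, whereas fold changes were computed after TMM scaling. With total counts in place of TMM, the median log2 fold change of all genes fell to -0.31, a shift of -0.35, and 16 of the 37 were called higher and 7 lower. Leaving out 1 mouse leaves 2 against 2 libraries. Without mouse 293, 15 were higher and 4 lower, and without mouse 294, 14 were higher and 3 lower, while over all genes 1977 and 1987 were higher and 1685 and 1600 lower. Without mouse 290, 25 were higher and 6 lower, with the call for Hk2 lost and Gpi1, Tpi1, Pfkl, Pgam1 and Slc16a1 added (adjusted p = 0.043, 0.038, 0.020, 0.018 and 0.0016), while over all genes 4887 were higher and 4844 lower. With all 29 libraries in 1 fit Pfkl, Pgam1 and Slc16a1 were added too (0.013, 0.025 and 0.014). With total counts, over all genes, 2438 were higher and 4812 lower, against 3569 and 3299.

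**Figure D1:**
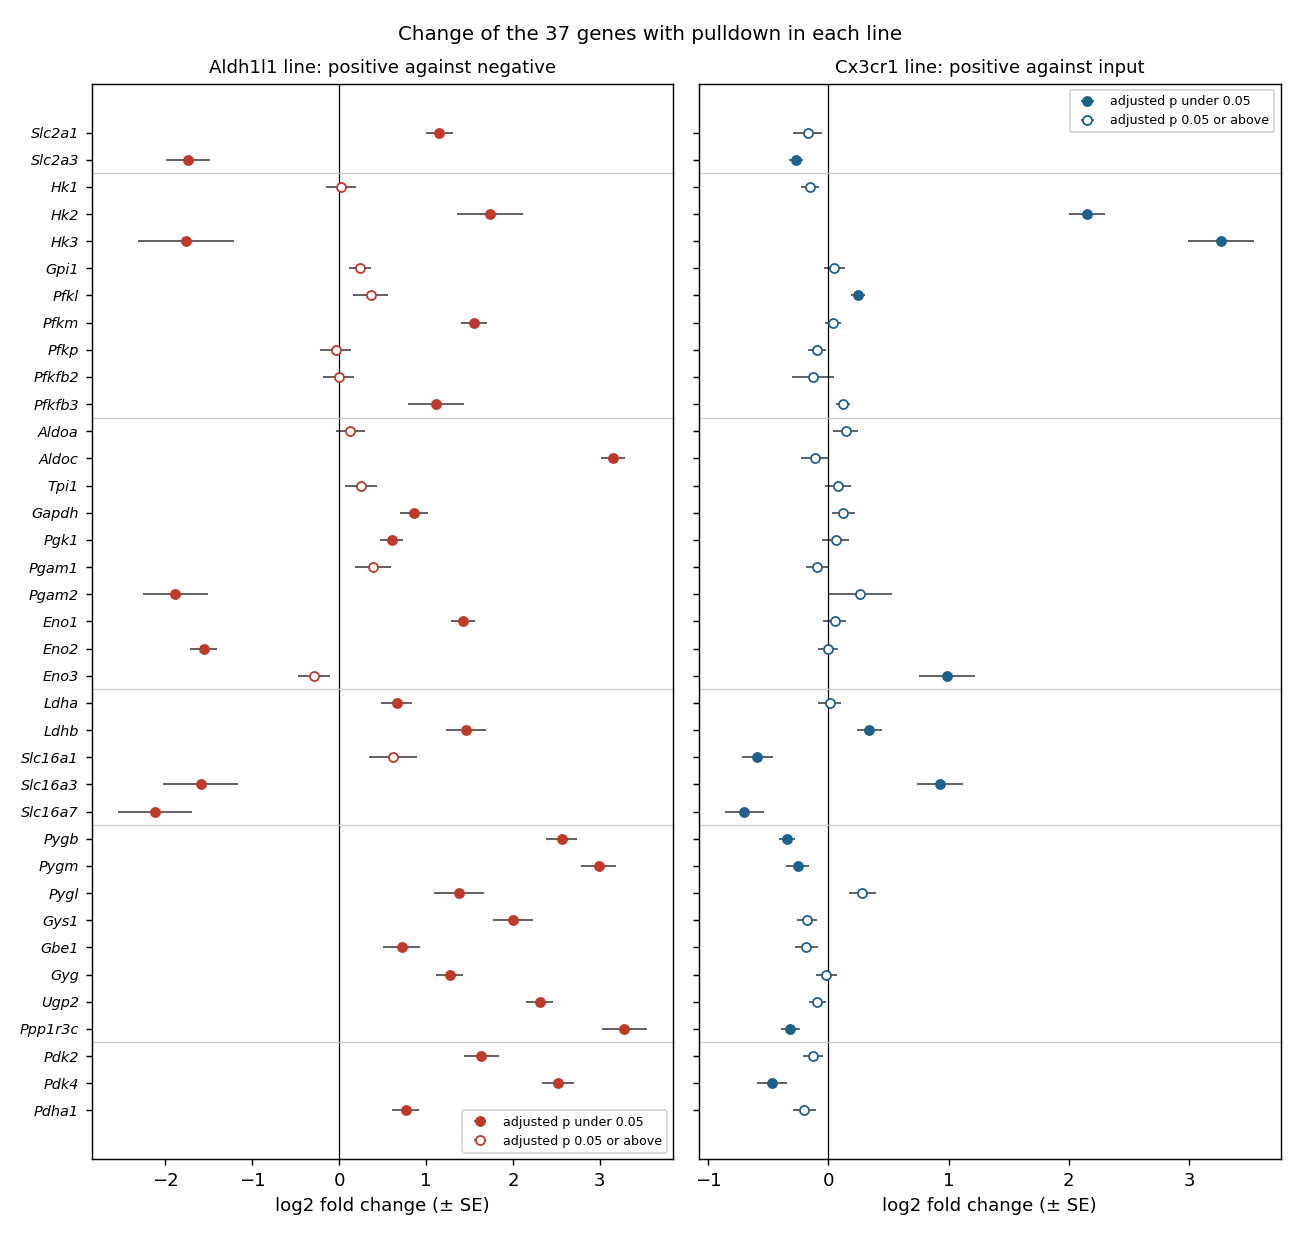
log2 fold change (x axis, ± standard error) of each of the 37 genes (y axis, grouped by role from glucose transport at the top to pyruvate dehydrogenase at the bottom) for positive against negative fraction of 3 Aldh1l1-NuTRAP mice (left) and positive fraction against input of 6 Cx3cr1-NuTRAP mice (right), with filled points for adjusted p under 0.05. The glycogen genes all lie to the right of 0 on the left, from 0.72 for Gbe1 to 3.28 for Ppp1r3c, and Hk3 and Hk2 stand apart on the right.

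Glycogen genes rose as a group in the astrocyte fraction. Ppp1r3c, the subunit that brings protein phosphatase 1 to glycogen and thereby activates its synthesis, was at 425, 441 and 448 CPM in the positive fractions of mice 290, 293 and 294 and at 77.4, 49.6 and 44.2 CPM in their negative fractions. Every positive library was far above every negative one, the log2 fold change was 3.28 ± 0.26 (SE), or 9.74-fold, and the adjusted p was 9.7e-05. Pygm, the muscle form of glycogen phosphorylase, which releases glucose units from glycogen, was at 249, 391.5 and 367 CPM against 53.0, 55.7 and 52.6 CPM, with a log2 fold change of 2.98 ± 0.20 (adjusted p = 6.3e-05). Pygb, the brain form, was at 828, 1210 and 1034 CPM against 215, 232 and 214 CPM, a log2 fold change of 2.56 ± 0.17 (adjusted p = 5.9e-05). For both phosphorylases the groups were clearly separated, and in both mouse 290 gave the lowest positive value. The liver form Pygl was scarce, at 10.9, 11.1 and 8.61 CPM against 3.42, 6.72 and 4.59 CPM, and rose by 1.38 ± 0.29 (adjusted p = 0.0056).

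The genes that build glycogen moved the same way. Ugp2, which makes the UDP-glucose from which glycogen is built, was at 322, 264 and 316 CPM against 78.1, 80.3 and 73.7 CPM (log2 fold change 2.31 ± 0.16, adjusted p = 6.2e-05). Gys1, the glycogen synthase of tissues other than liver, was at 47.5, 73.1 and 67.8 CPM against 14.8, 23.1 and 21.5 CPM (2.00 ± 0.23, adjusted p = 0.00042). Gyg, the glycogenin primer on which a granule starts, was at 43.7, 37.2 and 44.2 CPM against 21.0, 21.7 and 23.2 CPM (1.27 ± 0.15, adjusted p = 0.00048). For these genes no positive library overlapped a negative one. Gbe1, the branching enzyme, changed least, from 12.1 ± 0.652 to 15.7 ± 3.91 CPM (SD, n = 3 each), and its groups overlapped on the CPM scale. Its log2 fold change of 0.72 ± 0.21 had an adjusted p of 0.025, which became 0.19 with total counts (log2 fold change 0.38). Without mouse 293 or without mouse 294 the call for Gbe1 was lost too, and that for Pygl was lost without mouse 294 (adjusted p = 0.051). Such a comparison rests on 2 against 2 libraries.

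Both pyruvate dehydrogenase kinases, which phosphorylate the complex and so restrain entry of pyruvate into the citric acid cycle, rose in the astrocyte fraction. Pdk4 was at 54.7, 79.1 and 71.1 CPM against 13.7, 16.5 and 15.3 CPM (log2 fold change 2.52 ± 0.18, adjusted p = 7.8e-05). Pdk2 was at 232, 323 and 331 CPM against 103, 115 and 144 CPM (1.64 ± 0.20, adjusted p = 0.00053). The target itself, the E1 alpha subunit Pdha1, rose less, from 274 ± 11.8 to 368 ± 59.2 CPM (0.77 ± 0.16, adjusted p = 0.0053), and its adjusted p was 0.063 with total counts, 0.085 without mouse 293 and 0.10 without mouse 294. Rows of a processed copy of Pdha1 held between 1.17% and 5.81% of its level, so a small part of its reads may be assigned elsewhere.

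In the upper part of glycolysis, Pfkm was the member whose rise in the astrocyte fraction was kept under every alternative. Pfkm, the muscle form of phosphofructokinase, the enzyme that commits glucose to glycolysis, was at 889, 1138 and 1172 CPM against 472, 460 and 458 CPM (log2 fold change 1.55 ± 0.15, adjusted p = 2.0e-04). Pfkl, the liver form, was at 227 ± 29.9 against 224 ± 41.8 CPM and Pfkp, the platelet form, at 209 ± 43.5 against 274 ± 15.8 CPM, and neither passed the test (log2 fold changes 0.36 ± 0.20 and -0.04 ± 0.18, adjusted p = 0.17 and 0.86). With the mouse as a block the call for Pfkl changed (log2 fold change 0.37, adjusted p = 0.0071). Pfkfb3, which makes the fructose 2,6-bisphosphate that activates phosphofructokinase, was at 46.8, 100.0 and 97.6 CPM against 33.0, 57.1 and 53.3 CPM, with higher values in 3 of 3 mice but overlapping groups (1.11 ± 0.32, adjusted p = 0.022). Its adjusted p was 0.087 with total counts, 0.10 without mouse 293 and 0.12 without mouse 294. Its relative Pfkfb2 was at 49.8 ± 9.99 against 63.6 ± 6.27 CPM (-0.01 ± 0.18, adjusted p = 0.98).

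Hexokinase traps glucose in the cell as glucose 6-phosphate, and Hk1 made up most of it per kilobase of exon in every group. Hk1 was at 318 ± 61.4 CPM in the positive and 398 ± 34.3 CPM in the negative fraction (log2 fold change 0.02 ± 0.17, adjusted p = 0.93). Hk2 was at 21.3, 11.0 and 34.0 CPM against 9.13, 8.04 and 8.18 CPM (1.74 ± 0.38, adjusted p = 0.0075), a wide spread among positive libraries. Hk3, the myeloid form, was at 0.714, 0.257 and 0.583 CPM against 2.92, 2.54 and 1.18 CPM (-1.76 ± 0.55, adjusted p = 0.031), which rests on as few as 5 counts in a positive library. The call for Hk2 was lost without mouse 290 (adjusted p = 0.10) and without mouse 294 (0.066), and that for Hk3 without mouse 293 (adjusted p = 0.21) and without mouse 294 (0.064). The glucose phosphate isomerase Gpi1 was at 545 ± 16.4 against 588 ± 17.3 CPM (0.24 ± 0.12, adjusted p = 0.15).

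Among the 10 genes from aldolase to enolase, Aldoc had the largest fold change in the astrocyte fraction. Aldoc, the brain aldolase, which splits fructose 1,6-bisphosphate, was at 5006, 5075 and 5339 CPM in the positive fractions and at 706, 685 and 820 CPM in the negative fractions. The positive libraries were close to each other and far above the negative ones (log2 fold change 3.15 ± 0.14, 8.86-fold, adjusted p = 3.4e-05). The ubiquitous aldolase Aldoa was at 1332 ± 164 against 1549 ± 173 CPM, with overlapping groups (0.13 ± 0.17, adjusted p = 0.54). The isozymes of enolase, which makes phosphoenolpyruvate, went in different directions between the fractions. Eno1, the form of most tissues, was at 1304, 1251 and 1271 CPM against 649, 577 and 585 CPM (1.43 ± 0.14, adjusted p = 0.00019). Eno2, the neuronal form, was at 242, 290 and 318 CPM against 1129, 1015 and 1036 CPM (-1.56 ± 0.15, adjusted p = 0.00021). Beside it, 10 of 10 neuronal markers were lower, with a median log2 fold change of -1.63, and their part in the fall of Eno2 was not tested. Eno3, the muscle form, was at 6.61 ± 0.434 against 10.3 ± 0.561 CPM (-0.29 ± 0.19, adjusted p = 0.23), and it was called lower with total counts (-0.64, adjusted p = 0.023).

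Genes with a single main form in this stretch moved less. Gapdh, which makes NADH and 1,3-bisphosphoglycerate, was at 1571, 1531 and 1636 CPM against 866, 1192 and 1269 CPM (log2 fold change 0.86 ± 0.16, adjusted p = 0.0039), with an adjusted p of 0.054 without mouse 293. Rows of Gapdh pseudogenes held between 3.23% and 14.6% of its level, so its values are uncertain by such a part. Pgk1, the first ATP-making enzyme of the pathway, rose by 0.60 ± 0.13 (479 ± 23.8 against 400 ± 5.10 CPM, adjusted p = 0.0073), and its call was lost with total counts (0.26, adjusted p = 0.13) and without mouse 293 or 294. Tpi1, the triose phosphate isomerase, was at 593 ± 84.4 against 632 ± 96.5 CPM (0.25 ± 0.19, adjusted p = 0.29). The phosphoglycerate mutase Pgam1 was at 384 ± 45.4 against 372 ± 94.1 CPM (0.39 ± 0.21, adjusted p = 0.15), and it was called higher with the mouse as a block (0.42, adjusted p = 0.0077). Pgam2, the muscle mutase, was rare and lower, at 1.01, 1.00 and 1.48 CPM against 7.97, 4.65 and 4.14 CPM (-1.89 ± 0.37, adjusted p = 0.0046).

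The 2 glucose transporters went in opposite directions as well. Slc2a1 (GLUT1), the transporter of astrocytes and of the blood-brain barrier, was at 126, 152 and 140 CPM in the positive and 77.8, 89.5 and 72.1 CPM in the negative fractions (log2 fold change 1.15 ± 0.16, adjusted p = 0.00081). Slc2a3 (GLUT3), the neuronal transporter, was at 26.5, 46.3 and 51.6 CPM against 146, 188 and 194 CPM (-1.74 ± 0.26, adjusted p = 0.0013). Neither pair of groups overlapped. The neuronal list had a median log2 fold change of -1.63 in this comparison, and its part in the fall of Slc2a3 was not tested. The 8 endothelial markers summed to between 73.1 and 102 CPM in the positive and between 94.3 and 161 CPM in the negative fractions, and 0 of the 8 were called in either direction. Ldhb, the lactate dehydrogenase subunit of oxidative tissues, was at 1785, 1155 and 1276 CPM against 790, 585 and 575 CPM (1.46 ± 0.23, adjusted p = 0.0018). Ldha, the subunit of glycolytic tissues, rose less, at 357, 270 and 301 CPM against 279, 237 and 228 CPM (0.66 ± 0.18, adjusted p = 0.017, and 0.15 with total counts). Without mouse 293 or 294 the call for Ldha was lost.

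Of the monocarboxylate transporters, which carry lactate and pyruvate across membranes, Slc16a1 (MCT1), the form of astrocytes, oligodendrocytes and endothelium, was at 82.9, 51.6 and 65.0 CPM against 73.2, 49.7 and 42.3 CPM. Its groups overlapped although it was higher in 3 of 3 mice, and it missed the threshold (log2 fold change 0.62 ± 0.27, adjusted p = 0.096) but passed it with the mouse as a block (0.63, adjusted p = 0.0011). Slc16a7 (MCT2), the neuronal form, was at 0.972, 1.05 and 0.493 CPM against 3.64, 3.65 and 6.57 CPM (-2.12 ± 0.43, adjusted p = 0.0050). Slc16a3 (MCT4) was at 1.36, 0.643 and 0.934 CPM against 4.44, 4.50 and 2.24 CPM (-1.59 ± 0.43, adjusted p = 0.017). Both were at low counts in the positive fraction, with no fewer than 11 counts a library. Without mouse 294 the adjusted p was 0.065 for Slc16a7 and 0.054 for Slc16a3, and without mouse 293 it was 0.17 for Slc16a3. Hk3, Pgam2, Slc16a3 and Slc16a7, 4 of the 6 lower genes, entered this comparison only because the negative fraction passed the count minimum. The choroid plexus and ependyma list, led by Ttr, rose in the positive fraction too (4 of 4 tested, summed level between 2838 and 3369 CPM against 475 and 634 CPM), and its part in the results on this fraction was not tested.

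**Figure D2:**
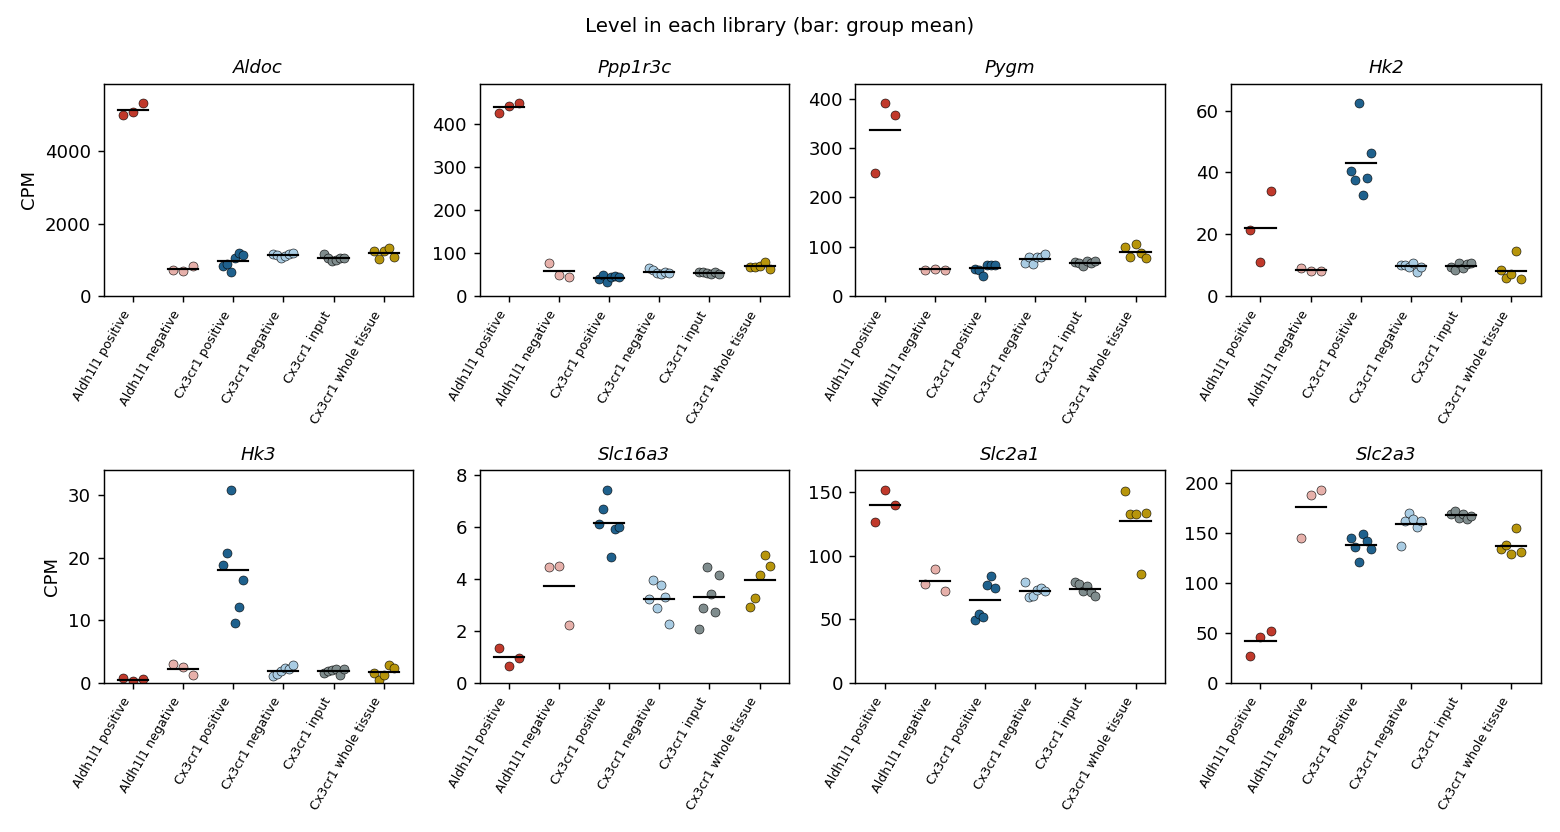
CPM (y axis, from 0) of 8 genes in each library of the 6 groups (x axis), where each point is 1 library and the bar is the group mean. Aldoc, Ppp1r3c and Pygm are high in the 3 Aldh1l1 positive libraries alone, and Hk2, Hk3 and Slc16a3 reach their highest values in Cx3cr1 positive libraries. Slc2a1 averages 127 CPM in whole tissue and 139 CPM in the Aldh1l1 positive fraction, and these groups were not tested against each other.

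In the microglial fraction most of the 37 genes did not pass the test over all 6 mice. Against the input, 6 were higher (Hk2, Hk3, Pfkl, Eno3, Ldhb and Slc16a3) and 7 lower (Slc2a3, Slc16a1, Slc16a7, Pygb, Pygm, Ppp1r3c and Pdk4), that is 16.2% and 18.9%, where 23.3% of all 13838 genes tested were higher and 25.6% lower. Against the negative fraction, 5 were higher and 5 lower (13.5% each), where 12.8% and 11.6% of 13776 genes were. Both comparisons share the positive libraries. The median log2 fold change of the 37 against the input was -0.02, and that of all genes was 0.00 to 2 decimals.

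These counts were then taken within each of the 2 sets of Cx3cr1 mice, a split that was chosen after the data were seen. The libraries within a set were grouped for their likeness, so the spread within it is narrow and its p-values are too small. With mice 155, 192 and 194 alone, 4 of the 37 were higher than in the input and 11 lower, and over all genes 3029 were higher and 2895 lower. With mice 209, 210 and 277 alone, 19 were higher and 8 lower, and over all genes 4227 and 4129. Hk2, Hk3, Slc16a3 and Eno3 were higher in both sets, by 2.34 and 1.98, 3.69 and 2.73, 1.16 and 0.72, and 1.34 and 0.48 on the log2 scale. Slc2a3, Slc16a1, Pygb, Ppp1r3c and Pdk4 were lower in both. Aldoc was lower in the first set (-0.38, adjusted p = 0.031) and higher in the second (0.14, adjusted p = 0.016), and so was Pgam1 (-0.38 and 0.20, adjusted p = 0.0080 and 0.0027). Aldoa, Tpi1, Gapdh, Pgk1, Eno1 and Ldha, enzymes from aldolase to lactate dehydrogenase, were higher in the second set, by 0.29 to 0.44, and did not pass in the first (-0.25 to -0.11). Slc2a1, Pdk2 and Pdha1 were lower in the first set (-0.52, -0.28 and -0.40) and did not pass in the second. Whether the sets differ was not tested. Beside these values, the neuronal list summed to 5366 to 6257 CPM in the first set of positive libraries and 7457 to 8292 CPM in the second, the astrocyte list to 2324 to 2866 and 3474 to 3570 CPM, and the erythrocyte list to 41.6 to 206 and 378 to 710 CPM. The part of these cell types in the differences was not tested. The calls for Pfkl, Ldhb and Slc16a7 were lost in the first set (adjusted p = 0.31, 0.71 and 0.16) and that for Pygm in the second (0.066).

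Hk3 changed most in the microglial fraction. It was between 9.57 and 30.9 CPM in the positive libraries (median 17.6) and between 1.31 and 2.26 CPM in the inputs (median 1.99), with no overlap, a log2 fold change of 3.27 ± 0.27 and an adjusted p of 5.5e-07. The gain was 9.62-fold and was seen in 6 of 6 mice. Hk2 was between 32.7 and 62.5 CPM (median 39.3) against 8.49 and 10.8 CPM (median 9.80), a log2 fold change of 2.15 ± 0.15 (adjusted p = 6.7e-08). It too was higher in 6 of 6 mice. The highest value of both genes was that of mouse 194, whose microglial markers also summed highest (7141 CPM, against 3021 to 4678 CPM in the other 5), and the lowest was that of mouse 209, with the lowest sum. Against the negative fraction the log2 fold changes were 3.25 ± 0.30 for Hk3 and 2.19 ± 0.15 for Hk2 (adjusted p = 1.5e-06 and 7.6e-08), where Hk3 passed the count minimum only through the positive fraction. Hk1 was at 393 ± 44.3 CPM in the positive fraction and 441 ± 14.8 CPM in the input (-0.15 ± 0.07, adjusted p = 0.093).

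Slc16a3 was between 4.84 and 7.43 CPM (median 6.05) against 2.08 and 4.47 CPM (median 3.15) in the input, with no overlap (log2 fold change 0.93 ± 0.19, adjusted p = 0.0011), and its value against the negative fraction was 0.96 ± 0.16 (adjusted p = 0.00058). Slc16a1 went the other way, from 49.5 ± 4.46 CPM in the input to 32.6 ± 7.68 CPM (SD, n = 6 each), in 6 of 6 mice (-0.59 ± 0.13, adjusted p = 0.0019). Slc16a7 fell from 6.96 ± 1.24 to 4.24 ± 0.765 CPM (-0.70 ± 0.16, adjusted p = 0.0025), but against the negative fraction its log2 fold change was -0.20 ± 0.16 (adjusted p = 0.40). Eno3 was between 10.2 and 27.7 CPM (median 17.9) against 6.92 and 10.8 CPM (median 9.45), higher in 6 of 6 mice (0.99 ± 0.23, adjusted p = 0.0033). Its 3 highest libraries were those of mice 155, 192 and 194 (23.2, 22.1 and 27.7 CPM), and the others lay between 10.2 and 13.6 CPM, of which the lowest was within the range of the inputs. Pfkl rose by 0.25 ± 0.06 (233 ± 17.2 against 198 ± 11.5 CPM, adjusted p = 0.0033), and against the negative fraction its log2 fold change was 0.07 ± 0.07 (adjusted p = 0.45). Ldhb rose by 0.34 ± 0.10 (adjusted p = 0.015, and 0.052 with the mouse as a block), and its call was lost without mouse 209, 210 or 277. Gys1 passed without mouse 155 (-0.27, adjusted p = 0.0092) and Pygl without mouse 194 (0.35, adjusted p = 0.030). With DESeq2 Pygl and Pfkfb3 passed (adjusted p = 0.020 and 0.047), and Pygl also with its size factors in edgeR (0.035).

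Of the 21 genes higher in the Aldh1l1 positive fraction, 4 were lower in the Cx3cr1 positive fraction than in the input, Hk2 and Ldhb were higher, and the others did not pass the test. Ppp1r3c fell from 53.6 ± 1.76 to 42.6 ± 5.62 CPM (log2 fold change -0.32 ± 0.08, adjusted p = 0.0046), Pygb from 277 ± 9.76 to 216 ± 22.7 CPM (-0.34 ± 0.07, adjusted p = 0.00087) and Pdk4 from 16.4 ± 1.84 to 11.8 ± 2.15 CPM (-0.47 ± 0.12, adjusted p = 0.0061). Each was lower in 6 of 6 mice. Pygm fell by 0.26 on the log2 scale (SE 0.10, adjusted p = 0.044), a call that was lost under 8 of the alternatives, among them each loss of mouse 155, 192, 209, 210 or 277. The neuronal transporter Slc2a3 fell from 168 ± 3.18 to 138 ± 10.1 CPM (-0.27 ± 0.06, adjusted p = 0.0015). Aldoc did not pass the test, at 965 ± 198 against 1053 ± 67.9 CPM (-0.11 ± 0.11, adjusted p = 0.42). Beside these values, the astrocyte list summed to between 2324 and 3570 CPM in the positive fraction and between 3796 and 4139 CPM in the input, and its part in them was not tested. Slc2a1 was at 49.5, 54.2 and 51.4 CPM in mice 155, 192 and 194 and at 77.0, 83.98 and 74.3 CPM in mice 209, 210 and 277 (-0.17 ± 0.12, adjusted p = 0.24). In the same positive libraries the endothelial list summed to 103, 124 and 127 CPM and to 206, 211 and 199 CPM.

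Against the negative fraction, Pfkfb3 was higher by 0.25 ± 0.08 and Eno3 by 0.82 ± 0.23 (adjusted p = 0.033 and 0.017), and Slc16a1, Pygb, Pygm, Ppp1r3c and Pdk4 were lower. The smaller of these calls were fragile. With the mouse as a block the adjusted p was 0.082 for Pfkfb3 and 0.057 for Pdk4. Pfkfb3 lost the call without mouse 194, 209, 210 or 277, Pygb without 192, 194, 209, 210 or 277, Pdk4 without 192, 194 or 277, Eno3 without 192 or 194, and Pygm without 192, with adjusted p values up to 0.14 for Pygb. Leaving out mouse 192, 194 or 277 left 2, 3 and 3 genes lower in place of 5, and leaving out mouse 194 left 3 higher. With mice 209, 210 and 277 alone 14 of the 37 were higher than in the negative fraction and 4 lower, with the calls for Eno3 and Pdk4 lost (adjusted p = 0.21 and 0.099), and with mice 155, 192 and 194 alone 5 were higher and 6 lower. Over all genes, 2679 were higher and 2358 lower with the former mice and 2304 and 1178 with the latter. With all mice, 1759 and 1593 of all genes were. The negative library of mouse 155 stood apart for several genes, and without this mouse 5 were higher and 6 lower, with Slc2a3 added (-0.23, adjusted p = 0.013). Slc2a3 also passed with DESeq2 (adjusted p = 0.035), and Pdha1 was lower with all 29 libraries in 1 fit (0.042).

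The positive fractions of the lines were then compared directly, and here line, cell type and time since tamoxifen cannot be told apart. Of the 37 genes, 21 were higher in the astrocyte fraction (56.8%) and 7 lower (18.9%), where 30.6% and 33.1% of all 13676 genes tested were. Ppp1r3c had the largest gain, at 438 ± 11.7 CPM (n = 3) against 42.6 ± 5.62 CPM (n = 6), a log2 difference of 3.67 ± 0.12 (12.8-fold, adjusted p = 8.8e-09). Next came Pygm (2.89 ± 0.16), Pdk4 (2.85 ± 0.17), Aldoc (2.73 ± 0.16) and Pygb (2.56 ± 0.13), with adjusted p values of 1.3e-07 or less. On the microglial side Hk3 differed most, by -4.87 ± 0.52 (adjusted p = 1.3e-05), followed by Slc16a3 (-2.37 ± 0.28, adjusted p = 3.1e-05). Both, and also Pgam2 and Slc16a7, passed the count minimum only through the microglial fraction, where they are high. The filter thus favoured this direction for 4 of the 7 lower genes, and their count supports nothing. Hk2 was higher in the microglial fraction by CPM, at 42.9 ± 10.5 against 22.1 ± 11.5, but the groups overlapped and the test was missed (-0.65 ± 0.32, adjusted p = 0.090). It passed with total counts (-0.95) and without mouse 294, whose Hk2 was the highest of its group (-1.09, adjusted p = 0.015). The call for Pgk1 was lost without mouse 290, 293, 155 or 192 (adjusted p = 0.084, 0.058, 0.053 and 0.052) and that for Gbe1 without mouse 293 or 294 (0.067 and 0.12). Pfkl missed the threshold but passed it with DESeq2 (adjusted p = 0.024), with its size factors in edgeR (0.040), with all 29 libraries in 1 fit (0.0019), without mouse 294 (0.023) and without mouse 210 (0.025). In the fit of all 29 libraries Gpi1, Tpi1, Pgam1 and Hk2 passed too (adjusted p = 0.0030, 0.018, 0.0081 and 0.048), and Pgam1 also without mouse 210 (0.047). Pfkp passed with total counts (-0.44, adjusted p = 0.032). Against Cx3cr1 mice 155, 192 and 194 alone 25 were higher and 6 lower, with the call for Pgam2 lost (adjusted p = 0.072) and Gpi1, Pfkl, Tpi1 and Pgam1 added, and against mice 209, 210 and 277 alone 20 were higher and 6 lower, with the calls for Pgk1, Eno3 and Gbe1 lost (0.069, 0.052 and 0.082) and Pfkfb2 added. Over all genes, 4234 were higher and 4304 lower against the former mice, and 3902 and 3795 against the latter. Beside these values, 10 of 10 neuronal and 9 of 10 oligodendrocyte markers were lower in the Aldh1l1 positive fraction than in the Cx3cr1 positive fraction, and 4 of 4 tested choroid plexus and ependyma markers were higher. The neuronal list had a median log2 difference of -1.50, and those of Eno2 and Slc2a3 were -1.41 and -1.43. The part of these cell types in the differences was not tested. With total counts the median of all genes moved by -0.31, 17 of the 37 were higher and 9 lower, with the calls for Gapdh, Pgk1, Pygl and Gbe1 lost (adjusted p = 0.16, 0.53, 0.051 and 0.32), and over all genes 2880 were higher and 6304 lower, against 4188 and 4530.

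Whether pulldown acted differently in the lines was tested for 13983 genes as an interaction, the difference between lines in the log2 ratio of positive over negative. It was larger in the Aldh1l1 line for 21 of the 37 genes and smaller for 7, where 25.5% of all genes were larger and 29.9% smaller. All 8 glycogen genes were among the 21, with log2 differences from 0.75 ± 0.19 for Gbe1 to 3.63 ± 0.22 for Ppp1r3c. The 7 were Slc2a3, Hk3, Pgam2, Eno2, Eno3, Slc16a3 and Slc16a7. Of these, Hk3, Pgam2, Slc16a3 and Slc16a7 did not pass the count minimum in the Aldh1l1 positive fraction, with as few as 5 to 14 counts in a library, and entered through other groups, so their count supports nothing. For Hk2, which rose in both lines, the difference was -0.50 ± 0.36 (adjusted p = 0.25), and without mouse 294 it was -0.97 (adjusted p = 0.038). The call for Pfkfb3 was lost without mouse 294 (adjusted p = 0.051) and that for Eno3 without mouse 293 (adjusted p = 0.060). With total counts the calls for Pfkfb3, Pgk1, Ldha and the glycogen gene Gbe1 were lost (adjusted p = 0.090, 0.14, 0.057 and 0.056). Hk1, Gpi1, Pfkl, Pfkp, Pfkfb2, Aldoa, Tpi1 and Pgam1 did not pass either, with log2 differences between -0.27 and 0.44, and Pgam1 passed with the mouse as a block (0.48, adjusted p = 0.019), with DESeq2 (0.044), with all 29 libraries in 1 fit (0.0084) and without mouse 209 or 210 (0.047 and 0.049). Gpi1 passed in the fit of all 29 libraries (adjusted p = 0.019). With Cx3cr1 mice 155, 192 and 194 alone the calls for Pfkfb3 and Pgam2 were lost (adjusted p = 0.062 and 0.099) and Gpi1 and Pgam1 were added, and with mice 209, 210 and 277 alone those for Pfkfb3 and Eno3 were lost (0.055 and 0.087). With total counts the median of all genes moved by -0.27 and 2604 genes were larger and 5712 smaller, against 3572 and 4179.

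Within a library, the ratio of 2 related genes does not depend on how the library is scaled, and 16 such ratios were compared. In 14 of the 16 the 3 Aldh1l1 positive and the 6 Cx3cr1 positive libraries did not overlap, and these 14 reached the smallest p of an exact two-sided permutation test of 3 against 6 libraries (p = 0.0238, adjusted over 32 ratio tests 0.0435). Of all single genes, 30.6% were called higher and 33.1% lower between these fractions, and the share of other gene pairs that separate was not computed, so the count is a description of the 16. Of the 14, 4 (Hk3 to Hk2, Pgam2 to Pgam1, Slc16a1 to Slc16a7 and Slc16a3 to Slc16a1) contain a gene with as few as 5 to 14 counts in an Aldh1l1 positive library that passed the count minimum only through the microglial fraction, and their separation supports nothing. Aldoc to Aldoa was 1.96 on the log2 scale in the astrocyte and -0.80 in the microglial fraction. Eno1 to Eno2 was 2.18 against -0.42 and Slc2a1 to Slc2a3 1.80 against -1.11. The ratios are of counts, not per length, so only their differences between libraries are read. Slc16a3 to Slc16a1, the exporter of glycolytic cells over the more general transporter, was -6.07 against -2.37, and Slc16a1 to Slc16a7 was 6.29 against 2.92. Hk3 to Hk2 was -5.32 against -1.31. Ldhb to Ldha differed by only 0.29 (2.17 against 1.87) and Pygm to Pygb by 0.33 (-1.62 against -1.95), although neither pair of groups overlapped. Hk1 to Hk2 (3.97 against 3.22, exact permutation p = 0.21) and Pfkfb3 to Pfkfb2 (0.65 against -0.04, exact permutation p = 0.071) overlapped.

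**Figure D3:**
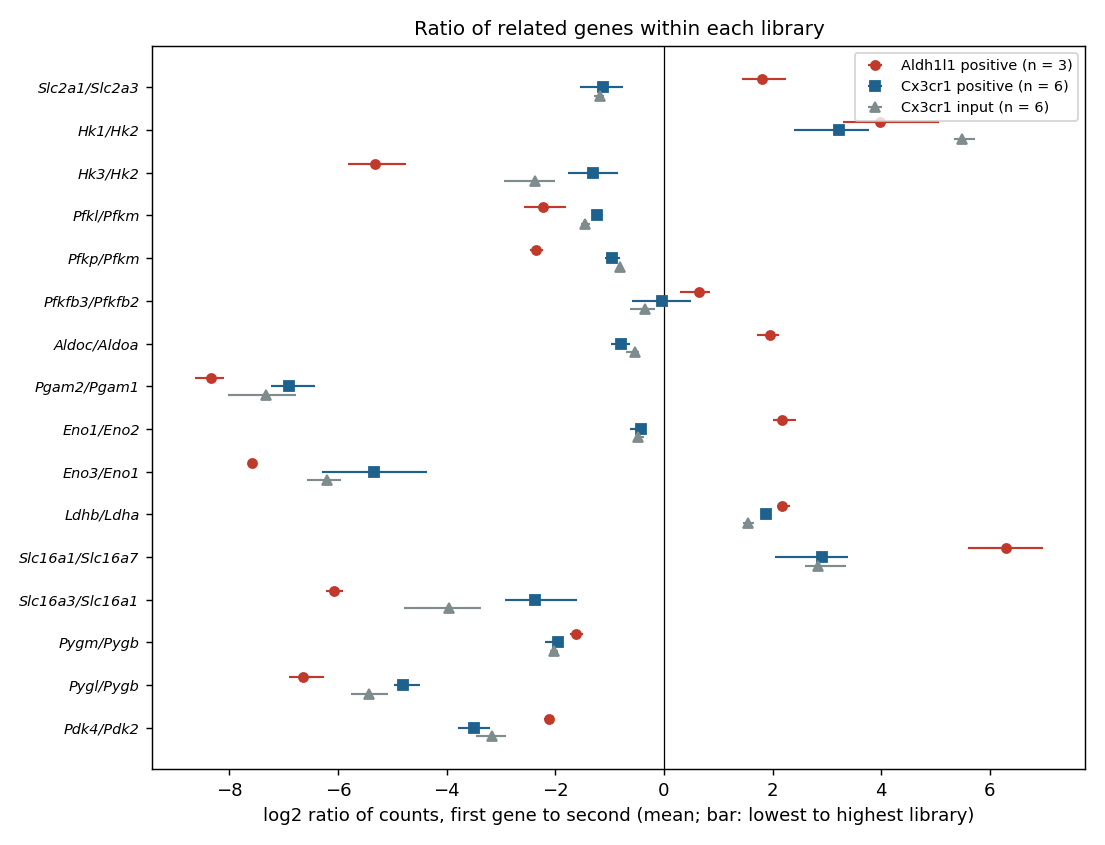
log2 ratio of the counts of 2 related genes (x axis, first gene over second) for 16 pairs (y axis) in the Aldh1l1 positive (n = 3), Cx3cr1 positive (n = 6) and Cx3cr1 input libraries (n = 6), with the mean as a point and the lowest and highest library as the bar. For Aldoc/Aldoa, Eno1/Eno2 and Slc2a1/Slc2a3 the Aldh1l1 positive libraries lie above 0 and the Cx3cr1 positive libraries below it.

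Against their own inputs, 9 of the 16 ratios changed in the Cx3cr1 positive fraction, each in 6 of 6 mice and at the smallest p of the exact sign-flip permutation test (p = 0.0312, adjusted 0.0435). Of all single genes 23.3% were higher and 25.6% lower in this comparison, and the share of other gene pairs that change was not computed. Hk1 to Hk2 fell by 2.28 ± 0.401 on the log2 scale (SD of the 6 differences), while Slc16a3 to Slc16a1 rose by 1.58 ± 0.691 and Hk3 to Hk2 by 1.05 ± 0.464. Pygl to Pygb rose by 0.64, Ldhb to Ldha by 0.33 and Pfkl to Pfkm by 0.22, and Pdk4 to Pdk2, Aldoc to Aldoa and Pfkp to Pfkm fell by 0.34, 0.26 and 0.13. Eno1 to Eno2, which separated the lines, differed from the input by 0.05 (exact permutation p = 0.47). Slc2a1 to Slc2a3 differed by 0.07 (exact permutation p = 0.72). In the Aldh1l1 line all 16 ratios differed from the negative fraction in the same direction in 3 of 3 mice, and 3 mice cannot give a sign-flip permutation p below 0.25. Since 26.8% of all genes were called higher and 24.8% lower between these fractions, such agreement is no sign that these pairs are particular. In 4 of the 16 (Hk3 to Hk2, Pgam2 to Pgam1, Slc16a1 to Slc16a7 and Slc16a3 to Slc16a1) a gene passed the count minimum only through the negative fraction, and their direction supports nothing. Of the other 12, Aldoc to Aldoa rose most (3.03) and Eno3 to Eno1 fell most (-1.72).

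Levels of different genes were compared per kilobase of exon, as shares of each family. Aldoc made up 77.5% ± 2.57 of aldolase in the astrocyte fraction (SD, n = 3) and 29.9% ± 3.22 in its negative fraction, against 33.9% ± 1.92 in the microglial fraction (n = 6) and 38.1% ± 1.44 in its input. Eno1 made up 78.8% ± 2.40 of enolase in the astrocyte fraction and 38.2% ± 2.18 in the microglial fraction, where Eno2 made up 58.5% ± 1.73. With the longest transcript as the length these became 49.8% for Eno1 and 48.4% for Eno2, so which of them leads in that fraction turns with the length used. Aldoc was 68.2% and 24.2% by that length. Hk1 remained the main hexokinase in all groups, at 90.5% ± 4.64 in the astrocyte and 79.1% ± 6.70 in the microglial fraction, compared with 96.0% ± 0.358 in the microglial line's input. The rest in the Cx3cr1 positive fraction was 12.4% ± 3.17 Hk2 and 8.54% ± 3.71 Hk3 (7.48% and 5.47% by the longest transcript). These are shares of a fraction whose neuronal markers were near the level of the input, not of microglia. Pfkm was 86.4% ± 2.12 and 74.5% ± 0.758 of phosphofructokinase, and Slc2a1 was 87.6% ± 3.00 and 48.9% ± 5.27 of the pair of glucose transporters. Slc16a3 made up 1.18% ± 0.159 of the monocarboxylate transporters in the astrocyte and 13.6% ± 4.13 in the microglial fraction. Pygb led glycogen phosphorylase in both (66.9% ± 1.75 and 70.8% ± 1.38), with Pygm second.

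**Figure D4:**
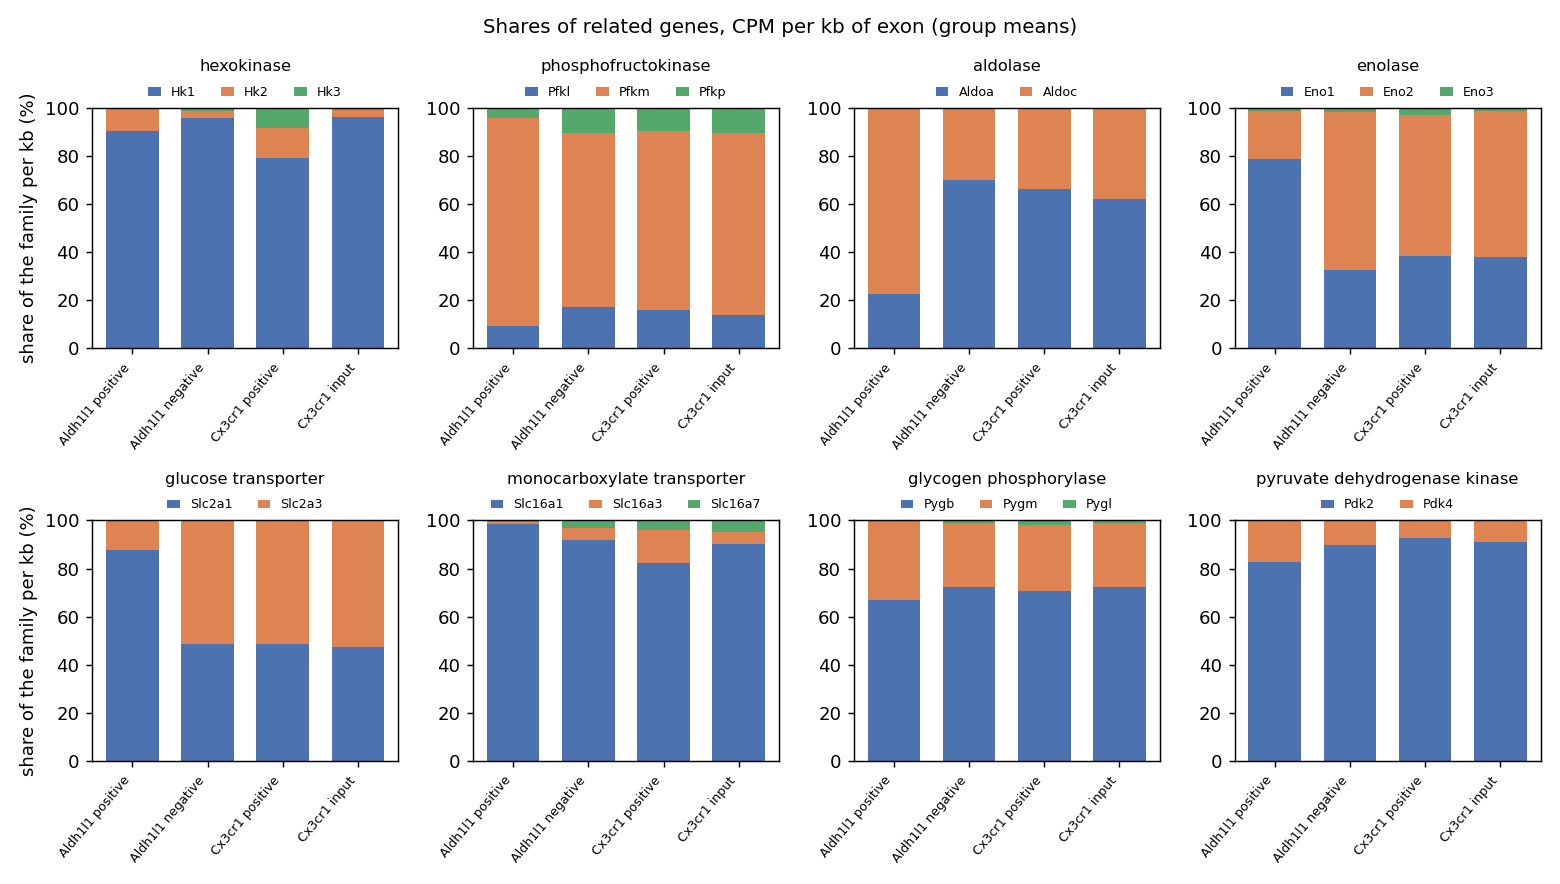
Share of each family (y axis, percent from 0 to 100, group means of CPM per kilobase of exon) taken by each gene in 4 groups (x axis). Aldoc rises from 29.9% to 77.5% and Eno1 from 32.7% to 78.8% between the Aldh1l1 negative and positive fractions, and Hk2 and Hk3 widen in the Cx3cr1 positive fraction.

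Input and whole tissue differed for 13 of the 37 genes. They differ in how the RNA was prepared, and whether the same tissue was sampled was not tested. In the input, 5 were higher (13.5%) and 8 lower (21.6%), where 15.7% and 14.6% of all 13608 genes tested were. Slc2a1 was between 68.1 and 78.8 CPM in the inputs (median 74.1) and at 150, 133, 133, 85.8 and 133 CPM in the whole tissue of mice 192, 194, 209, 210 and 277 (log2 fold change -0.80 ± 0.10, adjusted p = 0.00012). All 8 endothelial markers were lower in the input, and their sum was between 109 and 129 CPM there and between 181 and 327 CPM in whole tissue. The lowest whole-tissue value of Slc2a1 and the lowest endothelial sum were both those of mouse 210, and without this mouse the log2 fold change was -0.89. The part of endothelial RNA in the Slc2a1 difference was not tested. The glycogen genes lower in the input were Pygb (-0.40 ± 0.07), Pygm (-0.42 ± 0.08), Ppp1r3c (-0.36 ± 0.06), Ugp2 (-0.23 ± 0.05) and Gyg (-0.26 ± 0.08, and adjusted p = 0.070 with the mouse as a block). Beside them, 4 of 10 astrocyte, 9 of 10 oligodendrocyte and 5 of 5 pericyte and smooth muscle markers were lower in the input and none of these was higher, and 4 of 10 neuronal markers were higher and 4 lower. The part of these in the glycogen genes was not tested. Slc16a1 (-0.39 ± 0.08) and Pfkfb3 (-0.36 ± 0.09) completed the 8. Both of these calls were lost with all 29 libraries in 1 fit (adjusted p = 0.073 and 0.051). The 5 higher genes were Slc2a3, Pfkl, Pfkfb2, Pgam2 and Pdk2, of which Pfkl and Pgam2 lost the call with the block (adjusted p = 0.11 and 0.081). Pgam2, like Hk3, Slc16a7 and Pygl, passed the count minimum only through the input. Gyg and Pgam2 also lost the call without mouse 192, 194 or 209, Pfkl without 155, 192, 194 or 209, and Pdk2 without 194, 209 or 277. Without mouse 155 Aldoc, Pgk1 and Pgam1 were lower (adjusted p = 0.036, 0.040 and 0.038), and without mouse 210 Hk2 was higher and Gbe1 lower (0.0095 and 0.0099). With DESeq2 Aldoc and Gbe1 were lower (0.048 and 0.038). The 5 calls were 2 without mouse 194 or 209, 3 without mouse 192 and 1 when all 29 libraries entered 1 fit.

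Of 81 further genes of these pathways, 66 were tested in the Aldh1l1 line and 32 rose and 12 fell, where 26.8% of all genes rose and 24.8% fell. Among 19 tested genes of glycogen metabolism 10 rose and 3 fell. Ppp1r3g, another glycogen-targeting subunit of protein phosphatase 1, rose by 3.86, Ppp1r3d, of the same family, by 2.53, and Phkg1, the catalytic subunit of phosphorylase kinase, by 2.78 (all log2). The insulin-responsive glucose transporter Slc2a4 rose by 3.18, but from 1.29 to 9.53 CPM, and it passed the count minimum only through the positive fraction. Slc2a10 and Slc2a12, of the same transporter family, rose by 2.46 and 2.01, Mpc1, a subunit of the mitochondrial pyruvate carrier, by 2.13, and the phosphoglucomutase Pgm2 by 2.04. Eno1b, a processed copy of Eno1, rose by 2.15 and was at 3.10 CPM, and reads that could come from Eno1 make its value uncertain. It too passed the count minimum only through the positive fraction. Pkm, the pyruvate kinase gene of brain, was at 1536 against 1595 CPM and did not pass the test (0.29).

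In the Cx3cr1 line 13 of 68 of these genes were higher and 16 lower than in the input, both below the shares of all genes (23.3% and 25.6%). The largest difference was that of Slc2a5, the fructose transporter, which rose by 3.50 on the log2 scale, from 4.50 to 50.5 CPM. In the Aldh1l1 line the same gene fell by 2.49, and between the positive fractions it differed by -6.19. It had 9 to 11 counts in the Aldh1l1 positive libraries and entered both comparisons only through the group where it is high, so these differences support nothing. Khk, the ketohexokinase that phosphorylates fructose, rose by 1.05 in the Cx3cr1 line, and Slc2a12 and Pdpr, a regulator of pyruvate dehydrogenase phosphatase, fell by 1.14 and 1.15. Against the negative fraction 6 of 69 were higher and 7 lower (all genes 12.8% and 11.6%), of which Slc2a5 (3.63) and Ppp1r3b (1.17) changed by at least 1. Between the positive fractions 32 of 69 were higher in the astrocyte fraction and 17 lower (all genes 30.6% and 33.1%). Beside Slc2a5, the largest log2 differences were those of Ppp1r3g (4.03), Ppp1r3d (3.03), Phkg1 (2.94), Slc2a12 (2.67), Slc2a4 (2.64), Slc2a10 (2.44), Eno1b (2.09) and Phka1, a regulatory subunit of phosphorylase kinase (2.02). Of these, Eno1b passed the count minimum only through the astrocyte fraction, where it is high, so its difference supports nothing. In the interaction 29 of 70 were larger in the Aldh1l1 line and 14 smaller (all genes 25.5% and 29.9%), with log2 differences of -6.18 for Slc2a5, 3.96 for Ppp1r3g, 3.24 for Slc2a4, 2.94 for Slc2a12, 2.85 for Phkg1, 2.79 for Ppp1r3d, 2.72 for Slc2a10, 2.32 for Eno1b and 2.22 for Phka1. In the interaction Slc2a5, Slc2a4 and Eno1b did not pass the count minimum in every group, and Eno1b did not pass it in the Cx3cr1 positive fraction either. Between input and whole tissue 6 of 67 were higher and 11 lower (all genes 15.7% and 14.6%), and Slc2a9, which passed the count minimum only through the input, differed most (1.00).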

How the data were processed

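Ribosome-bound and other RNA from 29 libraries was sequenced after poly(A) selection. The authors aligned the reads with Strand NGS to mm10 and deposited estimated counts per gene, of which 82.8% of the values above 0 are not whole. The authors also deposited log2 values, normalized with DESeq, which were not used for any result. The lists and the 37 genes were chosen with earlier results of these data known.

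Estimated counts were rounded and a gene was kept where all libraries of 1 or more of the compared groups exceeded 20 counts. Comparisons used edgeR 4.0.16 (R 4.3.3; quasi-likelihood, robust, TMM) with Benjamini-Hochberg adjustment over all genes tested and a threshold of 0.05. The mouse was the replicate. Ratios of related genes (0.5 added to each count) were compared by exact permutation tests in Python 3.11.15 with scipy 1.17.1. The method was tested on simulated data. Alternatives were DESeq2 1.42.0, its size factors, total counts, no filter, all libraries in 1 fit, the mouse as a block, leaving out each mouse and, added after the data were seen, 2 sets of Cx3cr1 mice. All 37 genes are named, and of further pathway genes those called with an absolute log2 fold change of at least 1, at most 10 per comparison, apart from a gene that is not reported here.

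Fractions of 1 mouse are paired by design. Deviations from group means correlated between Aldh1l1 fractions in 3 of 3 pairs (0.484 to 0.692), but above 0.1 in only 3 of 6 pairs of Cx3cr1 positive fraction with input (-0.265 to 0.189), 3 of 6 with negative fraction (-0.307 to 0.248) and 0 of 5 of input with whole tissue (-0.200 to 0.0760). Totals per library were 4260949 to 26857866 counts. Aldh1l1 input and whole tissue were not analysed here.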

Additional observations from a re-analysis of the deposited data

Results flagged for a closer look

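In 10 of 148 gene and group sets, 1 library lay far from the others by Dixon's test, which chance alone gives in about 1 in 20. Of the 10, 7 were in the negative fraction of Cx3cr1 mouse 155. There Hk1 (371.3 CPM), Pfkp (280.2 CPM), Gapdh (1238.0 CPM) and Pgam1 (372.2 CPM) were the lowest of 6 libraries, and Tpi1 (756.1 CPM), Pgam2 (6.709 CPM) and Slc16a1 (67.95 CPM) the highest. The other 3 were in the whole tissue of mouse 210, where Slc2a1 was lowest of 5 (85.84 CPM) and Pfkfb2 (63.93 CPM) and Aldoa (1627.0 CPM) were highest.

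The log2 ratio of positive over negative differed between the lines for 28 of the 37 genes (edgeR interaction test), where 25.5% of all genes had a larger and 29.9% a smaller ratio in the Aldh1l1 line. Hk3, Pgam2, Slc16a3 and Slc16a7 did not pass the count minimum in the Aldh1l1 positive fraction, so their differences support nothing. The difference, Aldh1l1 minus Cx3cr1, was above 0 for Slc2a1 1.239, Pfkm 1.475, Pfkfb3 0.8159, Aldoc 3.315, Gapdh 0.8271, Pgk1 0.6176, Eno1 1.44, Ldha 0.721, Ldhb 1.31, Slc16a1 1.2, Pygb 2.751, Pygm 3.346, Pygl 1.069, Gys1 1.97, Gbe1 0.7522, Gyg 1.329, Ugp2 2.393, Ppp1r3c 3.628, Pdk2 1.735, Pdk4 2.877 and Pdha1 0.9549. It was below 0 for Slc2a3 -1.606, Hk3 -5.059, Pgam2 -1.988, Eno2 -1.536, Eno3 -1.164, Slc16a3 -2.605 and Slc16a7 -1.976.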

How the results depend on the processing

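No call made with all mice turned its direction under an alternative. Calls held under every alternative, the sets of mice below aside, for 16 of 27 genes between the Aldh1l1 fractions, 24 of 28 between the positive fractions, 23 of 28 in the interaction, 11 of 13 against the Cx3cr1 input, 5 of 10 against the Cx3cr1 negative fraction and 5 of 13 between input and whole tissue. With 1 mouse left out, 3 to 6 genes were lower between the Aldh1l1 fractions. Against the Cx3cr1 negative fraction 3 to 5 were higher and 2 to 6 lower, and between input and whole tissue 2 to 6 were higher. The latter count was 1 with all 29 libraries in 1 fit and 3 with the replicate block. With the replicate block, other calls that changed are given beside their results, and it changed no further call.

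Over all genes, without mouse 293 or 294 the Aldh1l1 line gave 1977 higher and 1685 lower, or 1987 and 1600. Against the Cx3cr1 negative fraction 570 were lower without mouse 192, 1151 higher and 868 lower without 194 and 866 lower without 277. Between input and whole tissue the counts were 1167 and 1283 with all 29 libraries in 1 fit, 1409 and 1223 without mouse 192, 1370 and 1204 without 194, and 1322 and 1265 without 209. In an alternative added after the data were seen, mice 155, 192 and 194 alone gave 4 higher and 11 lower of the 37 against the input, and mice 209, 210 and 277 alone gave 19 higher and 8 lower, and 14 higher and 4 lower against the negative fraction. Over all genes, the former mice gave 3029 higher and 2895 lower against the input. The latter gave 4227 and 4129 there, and 2679 and 2358 against the negative fraction. With the latter mice, 8 genes that had not passed did so with the opposite sign. Against the input these were Aldoc (0.14), Pgam1 (0.20) and Eno2 (0.18), and against the negative fraction Tpi1 (0.22), Gapdh (0.16), Pgk1 (0.23), Eno1 (0.16) and Ldha (0.18). The cause was not tested. Leaving out a library leaves the exact ratio tests too few arrangements to pass, so only signs were counted there. Few counts limit Hk3, Pgam2, Slc16a3 and Slc16a7 in the Aldh1l1 positive fraction.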
